A study of Homo sapiens with 6 samples.

Results

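The genes described here are the zinc finger genes of human chromosome 19. They were taken as the protein-coding genes whose symbol begins with ZNF, that lie on chromosome 19 and that had at least 60 read pairs summed over the 6 libraries. Of 236 such genes on the chromosome, 226 met the count threshold, out of 24526 genes in the whole table. RNA-seq was performed on WM266.4 cells, a human melanoma cell line, transfected either with a negative control siRNA (neg.si, 3 libraries) or with an siRNA against the kinase RIPK4 (RIPK4.si, 3 libraries) and harvested 48 h later. Both groups were the same line, with no other treatment named, and each group rested on 1 siRNA product, so an effect of the sequence of that siRNA and an effect of RIPK4 loss cannot be told apart. The study's question was how the transcriptome of melanoma cells changes when RIPK4 is silenced.

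Most zinc finger proteins of this chromosome carry a row of C2H2 fingers, each a short loop that holds a zinc ion and reads a few bases of DNA. Many also carry a KRAB domain at the start of the protein, which recruits TRIM28 and, through it, the histone methyltransferase SETDB1, HP1 proteins and deacetylases, so that the bound DNA is packed into silent chromatin. A large share of these proteins bind retroelements, and the genes arose by repeated duplication in tandem, which left them side by side in clusters.

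The libraries held 28464057 to 31688095 counts in all. RIPK4 measured 85.8, 76.5 and 54.7 CPM (counts of the gene relative to the library's total count, scaled by the TMM method) in neg.si libraries 1 to 3 and 19.9, 16.7 and 21.5 CPM in RIPK4.si libraries 1 to 3. The groups did not overlap, and RIPK4 fell by 1.90 on the log2 scale (SE 0.203, adjusted p = 0.0102 by Benjamini-Hochberg in edgeR's quasi-likelihood fit). Leaving out neg.si 2 or any RIPK4.si library ended this call in edgeR, with adjusted p-values from 0.0622 to 0.106 and log2 fold changes from -1.98 to -1.79. In these bulk libraries, fewer cells with a transcript and less of it in each cell cannot be told apart. All 8 melanocyte lineage markers looked for were present, from 11.1 to 14.6 CPM for MLANA to 869.6 to 1445.7 CPM for TYR. The libraries differed in how the level of a gene followed the GC content of its transcript. Across all genes the rank correlation with the centred level was 0.566 in neg.si 1, 0.084 in neg.si 2 and -0.561 in neg.si 3, while it lay between -0.086 and 0.175 in the 3 RIPK4.si libraries. neg.si 1 and neg.si 3 therefore stood apart in opposite directions.

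A feature that many of these genes share is visible in their sequence. The run of 14 bases present in the coding sequences of the most members was ACTGGAGAGAAACC, which encodes most of the linker between neighbouring C2H2 fingers. It occurred in transcripts of 131 of the 226 members (58.0%), with up to 22 copies in 1 transcript, and in 91 of 14956 other protein-coding genes (0.6%). Those others include the ZNF genes of other chromosomes. As the run was picked from the members, the contrast is no independent evidence. One unit of linker and finger, 84 bases long, is shown from the last exon of 6 members: the 4 whose unadjusted p-value was under 0.05, ZNF91, a retroelement repressor like ZNF93, and ZNF146, the most abundant member. Each unit is the first in its protein that matched the pattern searched, and the other fingers of these genes were not compared. The sequences are from the GRCh38 genome and GENCODE 44 transcripts, written 5′ to 3′ along the coding strand, and the 18 bases in capitals are the linker.
ZNF93 (chr19:19933541-19933624, plus strand): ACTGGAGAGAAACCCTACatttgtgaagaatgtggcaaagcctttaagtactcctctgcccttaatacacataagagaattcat
ZNF91 (chr19:23362031-23362114, minus strand): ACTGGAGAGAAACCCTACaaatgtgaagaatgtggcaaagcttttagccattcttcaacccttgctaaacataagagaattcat
ZNF565 (chr19:36183315-36183398, minus strand): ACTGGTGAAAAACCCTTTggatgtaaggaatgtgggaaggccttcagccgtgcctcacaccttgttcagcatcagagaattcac
ZNF460 (chr19:57291196-57291279, plus strand): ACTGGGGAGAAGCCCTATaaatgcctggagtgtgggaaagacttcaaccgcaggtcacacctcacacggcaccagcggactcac
ZNF665 (chr19:53165806-53165889, minus strand): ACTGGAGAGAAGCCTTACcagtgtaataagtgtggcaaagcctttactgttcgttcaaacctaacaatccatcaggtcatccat
ZNF146 (chr19:36236723-36236806, plus strand): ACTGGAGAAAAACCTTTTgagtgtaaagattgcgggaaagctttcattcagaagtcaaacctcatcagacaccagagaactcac

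ZNF93 and ZNF91, which encode repressors of LINE-1 and SVA retroelements, had 71 of the 84 bases in common and all 18 bases of the linker. Between ZNF565 and ZNF665 only 49 of the 84 bases matched, and 12 of the 18 in the linker. In spite of this likeness, 140 of the 226 shared no stretch of 100 bases with another gene, and in 31 at least 10% of such stretches were shared. Only the longest transcript of each gene was compared, coding transcripts first, so sharing with other transcripts or with the rest of the genome is not covered. Of the 226 members, 188 had the same start and end in GENCODE 44 as in the table, whose positions are given here for whole genes. Exons of 136 members overlapped another annotated gene. Read pairs were counted without regard to strand, so that reads of a member and of a gene on the opposite strand cannot be separated there.

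By the patterns found in the translated coding sequence, the members had from 1 finger (ZNF428) to 36 fingers (ZNF208), with a median of 12. A KRAB box pattern was found in 190 members and not in 36. The members lay in 17 groups along the chromosome, with gaps of over 1 megabase between groups, the largest being the group near the end of the long arm with 56 members. Their transcripts were rich in A and T, with a median GC content of 42.5% and a range from 33.9% to 70.9%, against a median of 48.1% for all genes tested. The 190 members with the KRAB pattern had a median of 42.3% GC and the others 58.7%.

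The members were expressed at low levels. The mean over the 6 libraries ran from 0.34 to 136.8 CPM with a median of 5.6 CPM, and 68 members reached 10 CPM while 29 were under 1 CPM. Per kilobase of transcript, the median member had 1.49 CPM, the median ZNF gene of another chromosome 2.57 CPM and the median of the other protein-coding genes of chromosome 19 6.62 CPM. The count threshold acts on these levels, so they describe the genes and were not tested.

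ZNF146, whose protein consists of little but fingers and has no KRAB domain, was the most abundant member by both measures. It measured 104.5, 119.4 and 151.4 CPM in neg.si and 150.6, 156.3 and 138.9 CPM in RIPK4.si. It alone gave 6.92% of the summed CPM of the members, and with 36.2 CPM per kilobase it stood well above the next member, ZNF317, at 12.2 CPM per kilobase. ZNF317, a KRAB gene, varied little between libraries, from 44.8 to 50.8 CPM in neg.si and from 49.9 to 52.2 CPM in RIPK4.si. ZNF562, ZNF226 and ZNF160 received the next most read pairs. ZNF562 had 41.1 ± 7.41 CPM in neg.si and 37.4 ± 4.80 CPM in RIPK4.si (mean ± SD, n = 3 here and below). ZNF226 had 34.0 ± 1.70 and 33.1 ± 4.16 CPM. ZNF160 had 34.0 ± 11.8 and 32.1 ± 14.7 CPM, with single libraries from 16 to 46.2 CPM, a wide spread. Per kilobase of transcript they had 3.10, 5.62 and 7.05 CPM in that order. By this scale the short transcript of ZNF581 (10.6 CPM per kilobase) and those of ZNF700 (9.27) and ZNF266 (8.82) came after ZNF317. At the other end, the members just inside the count threshold were ZNF578 with 62 counts in all and ZNF320 and ZNF837 with 67 each. Just outside it were ZNF781 with 42, ZNF296 with 41 and ZNF57 with 40 counts.

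No member of the family passed the test for a change after RIPK4 silencing. edgeR's filter on low counts kept 223 of the 226 members, leaving out ZNF320, ZNF578 and ZNF837, and none of the 223 had a Benjamini-Hochberg adjusted p under 0.05 in edgeR's quasi-likelihood test, where 0.767% of all 16297 genes tested did. The lowest adjusted p of a member was 0.319. At an unadjusted p under 0.05 there were 4 members, 3 with a higher level in RIPK4.si (ZNF565, ZNF665 and ZNF93, against 4.85% of all genes) and 1 with a lower level (ZNF460, against 6.0% of all genes). This was 1.79% of the members, where 10.8% of all genes tested had such a p. DESeq2 called none either, where it called 1.78% of all 24526 genes fitted. The same 4 members had an unadjusted p under 0.05 in DESeq2, where 7.3% of all genes with a p did. These DESeq2 shares also cover the genes of low count that edgeR's filter left out. After the GC trend of each library was removed, none was called, against 3.45% of all genes, and 9 members had an unadjusted p under 0.05, against 16.2% of all genes. The lowest adjusted p of a member then was 0.133. With no GC correction, the count of 4 became 6 without neg.si 1 (against 13.5% of all genes), 3 without neg.si 2 (6.88%) and 10 without neg.si 3 (14.3%). It became 2 without RIPK4.si 1 (8.54%), 5 without RIPK4.si 2 (8.73%) and 1 without RIPK4.si 3 (6.48%), and no member was called in any of these 6 fits. Of all genes, 0.418% were called without neg.si 1, 1.78% without neg.si 3, 0.0237% without RIPK4.si 2 and 0.0% without any 1 of the other 3 libraries. With the replicate number as a block no member was called (0.804% of all genes were) and 4 had an unadjusted p under 0.05 (10.6%). With the block and the GC trend removed together none was called (2.97%) and 9 had such a p (16.6%).

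The fold changes of the members were small, with few exceptions. Their median log2 fold change, RIPK4.si over neg.si, was -0.10, with quartiles at -0.23 and 0.07, and the median of all genes tested was -0.02. Of the 223, 78 lay above 0 and 145 below 0, while 53.4% of all genes lay below 0. The sign of the members' median rested on single libraries, since it was 0.07 without neg.si 3 and 0.00 without RIPK4.si 2. A fitted change of at least 1.5-fold was seen in 10 members, and in 11.4% of all genes. The 95% interval of the fold change stayed within 2-fold in either direction for 153 members (68.6%), a share near the 70.6% of all genes. For the other 70 the interval reached beyond 2-fold, among them members of high and of low count. The plot of level against fold change shows the members among the genes of low and middle level.

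**Figure D1:**
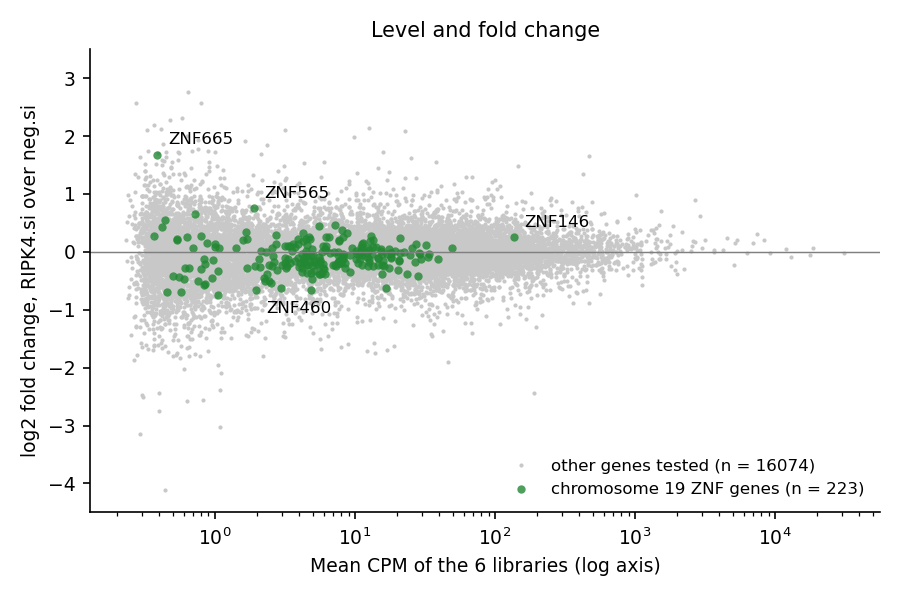
Mean CPM of the 6 libraries (x, log axis) and log2 fold change of RIPK4.si over neg.si (y) for the 223 chromosome 19 ZNF genes (green) and all other genes tested (grey). The members lie between -0.74 and 1.68 around a median of -0.10, with ZNF665 and ZNF565 at the top and ZNF146 at the far right.

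The libraries of each group were fully separated for 20 members, 7 higher and 13 lower in RIPK4.si. This was 8.97% of the members, while 17.6% of all genes tested were so separated, 8.23% with RIPK4.si higher and 9.4% with RIPK4.si lower. The 7 higher members and the 8 lower ones with the smallest p-values are described here, and the adjusted p of each is edgeR's, corrected by Benjamini-Hochberg over all genes tested.

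ZNF565 (ENSG00000196357.11, chromosome 19, 36182060 to 36246257) is a KRAB gene that overlaps ZNF146 on the opposite strand. It measured 1.87, 1.23 and 1.16 CPM in neg.si and 2.39, 2.35 and 2.44 CPM in RIPK4.si. All 3 RIPK4.si libraries were above the control libraries and close to one another, with a log2 fold change of 0.75 (SE 0.267, adjusted p = 0.319). ZNF93 (ENSG00000184635.16, chromosome 19, 19900913 to 19963464), the LINE-1 repressor shown above, measured 6.52, 5.33 and 6.39 CPM in neg.si and 8.93, 7.93 and 8.23 CPM in RIPK4.si. The difference was larger than the spread within either group, with a log2 fold change of 0.46 (SE 0.180, adjusted p = 0.374). It kept its sign when any library was left out, from 0.39 to 0.53.

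ZNF665 (ENSG00000197497.11, chromosome 19, 53159213 to 53193386) had the largest fitted change of the family at very low counts. It had 1, 7 and 9 counts in neg.si and 28, 11 and 14 counts in RIPK4.si. The lowest library was neg.si 1 and the highest RIPK4.si 1, and the log2 fold change was 1.68 (SE 0.646, adjusted p = 0.361). ZNF665 reached the filter's limit of 0.326 CPM in all 3 RIPK4.si libraries and in no neg.si library, so it was tested only through the group where it was higher. In all, 4 members reached that limit in every RIPK4.si library but not in every neg.si library, and 7 the other way round.

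The remaining 4 higher members differed by less. ZNF587B measured 5.23, 7.43 and 8.66 CPM in neg.si and 9.71, 8.79 and 9.07 CPM in RIPK4.si, and its log2 fold change was 0.37 (SE 0.215, adjusted p = 0.625), or 0.21 without neg.si 1 and 0.54 without neg.si 3. Its separation was narrow, as neg.si 3 lay just below the lowest RIPK4.si library. ZNF586, which overlaps exons of ZNF587B, measured 7.5 ± 0.297 CPM in neg.si and 8.96 ± 0.435 CPM in RIPK4.si. ZNF585B (0.571 ± 0.0339 and 0.682 ± 0.0311 CPM) shared 10.6% of its 100-base stretches, mostly with its neighbour ZNF585A, and its level is uncertain to that extent. ZNF233 (3.42 ± 0.219 and 3.77 ± 0.155 CPM) had a log2 fold change of 0.14.

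Among the lower members, ZNF460 (ENSG00000197714.9, chromosome 19, 57280051 to 57294069), a KRAB gene, measured 2.36, 1.96 and 2.83 CPM in neg.si and 1.5, 1.63 and 1.41 CPM in RIPK4.si. Every RIPK4.si library was below every control library, with a log2 fold change of -0.66 (SE 0.250, adjusted p = 0.353). ZNF418 (0.560 ± 0.0340 and 0.345 ± 0.0933 CPM) and ZNF582 (1.0 ± 0.111 and 0.670 ± 0.139 CPM) had fitted changes of similar size at lower counts, with log2 fold changes of -0.69 and -0.58. ZNF418 is 1 of the 7 members that reached the filter's limit in every neg.si library but not in every RIPK4.si library, so it too was tested only through the group where it was higher. ZNF536, a regulator of neuronal differentiation without a KRAB pattern, measured 6.91, 5.69 and 4.60 CPM in neg.si and 4.53, 4.15 and 3.73 CPM in RIPK4.si, and its log2 fold change was -0.47 (SE 0.217, adjusted p = 0.486), or -0.30 without neg.si 1. Its highest RIPK4.si library and its lowest control library nearly met. ZNF555 was the steadiest of the group in the controls, with 10.4, 10.3 and 10.1 CPM, against 7.91, 8.83 and 7.49 CPM in RIPK4.si, and its log2 fold change was -0.34 (SE 0.167, adjusted p = 0.521).

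ZNF443, ZNF599 and ZNF627 had log2 fold changes of -0.39, -0.33 and -0.32. That of ZNF627 was -0.16 without neg.si 2, and that of ZNF443 was -0.26 without RIPK4.si 3. ZNF443 had 6.29 ± 0.450 CPM in neg.si and 4.82 ± 0.744 CPM in RIPK4.si, and shared 18.1% of its 100-base stretches, mostly with ZNF799. ZNF599 had 5.69 ± 0.424 and 4.53 ± 0.271 CPM. ZNF627, the most abundant of the separated members named here at 7.22 CPM per kilobase, had 22.5 ± 3.65 and 18 ± 1.95 CPM. None of the 15 members passed the test, with adjusted p-values from 0.319 to 0.903. The 4 members with an unadjusted p under 0.05 all overlapped an exon of another gene, and among the 89 members tested without such an overlap there were 0 with an unadjusted p under 0.05 in edgeR (against 10.8% of all genes), 5 with separated groups (5.62%, against 17.6%) and 0 called by DESeq2.

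**Figure D2:**
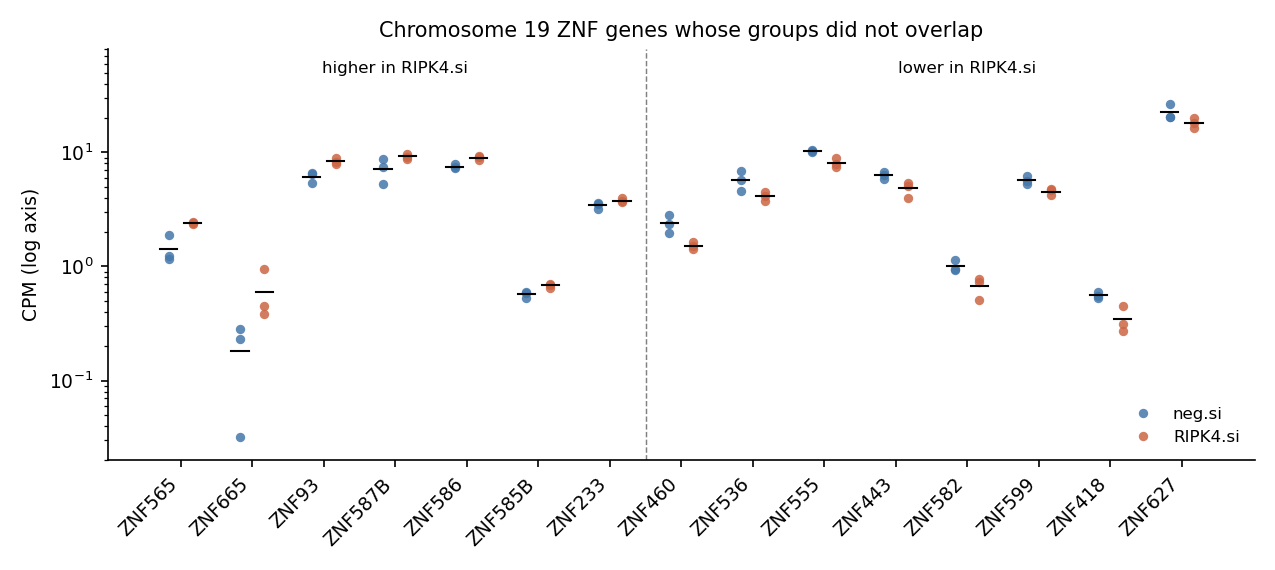
CPM (y, log axis) of the 15 chromosome 19 ZNF genes named for separated groups, with 1 point for each of the 3 neg.si (blue) and 3 RIPK4.si (orange) libraries and a black line at the group mean. The RIPK4.si points of ZNF565 lie close together above its neg.si points, ZNF665 spreads widely down to the lowest CPM, and the other separations are small on this scale.

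Members with a role known from other work were looked up by name. ZNF91, which represses SVA elements, measured 6.36, 6.89 and 14.5 CPM in neg.si and 11.9, 6.68 and 10.5 CPM in RIPK4.si. The groups overlapped widely, and the log2 fold change was 0.06 (SE 0.342), which moved to 0.55 without neg.si 3 and to -0.13 without neg.si 1. ZNF274, which binds the ends of other zinc finger genes and brings SETDB1 to them, measured 13.4 ± 0.681 CPM in neg.si and 11.9 ± 1.67 CPM in RIPK4.si, and its log2 fold change was -0.17 (SE 0.172). It was -0.28 without RIPK4.si 1 and -0.11 without neg.si 2, RIPK4.si 2 or RIPK4.si 3.

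The members linked to inflammatory signalling or tumour suppression did not pass the test either. ZNF675, an inhibitor of TRAF6 signalling, measured 2.65, 4.53 and 6.74 CPM in neg.si and 7.05, 5.12 and 6.88 CPM in RIPK4.si. neg.si 3 lay among the RIPK4.si libraries, and the log2 fold change was 0.45 (SE 0.318, edgeR adjusted p = 0.730 with Benjamini-Hochberg adjustment). It was 0.19 without neg.si 1 and 0.83 without neg.si 3. ZNF71, named for its induction by TNF in endothelial cells, was near the limit of detection with 0.358 ± 0.215 and 0.525 ± 0.130 CPM, and reached the filter's limit in every RIPK4.si library but not in every neg.si library. ZNF382, described as a repressor of NF-κB targets, measured 2.26, 2.93 and 5.54 CPM in neg.si and 2.56, 1.28 and 3.15 CPM in RIPK4.si, with a log2 fold change of -0.62 (SE 0.406), or -0.15 without neg.si 3 and -0.31 without RIPK4.si 2. ZNF350, a partner of BRCA1, had 11.2 ± 2.25 and 9.76 ± 0.577 CPM. ZNF224, a repressor of aldolase A, had 7.79 ± 2.67 and 6.70 ± 0.0864 CPM. ZNF331, an imprinted gene, had 4.65 ± 1.08 and 3.68 ± 1.11 CPM. ZNF568, whose mouse counterpart silences a placental Igf2 transcript, had 4.45 ± 1.0 and 4.02 ± 0.517 CPM. In these last 4 genes the difference between the group means was smaller than the larger SD.

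The level of the family as a whole differed between libraries of the same condition. Their log2 CPM, centred on the mean of the 6 libraries gene by gene, averaged -0.19, -0.01 and 0.30 in neg.si libraries 1 to 3 and 0.13, -0.26 and 0.04 in RIPK4.si libraries 1 to 3. The summed CPM of all 226 members was 1689, 1943 and 2405 in neg.si and 2121, 1729 and 1981 in RIPK4.si. neg.si 3 was the library with the highest level for 131 of the 223 members, and the lowest was RIPK4.si 2 for 80 and neg.si 1 for 70. The control group held both the highest and the lowest summed CPM, while the mean centred level was lowest in RIPK4.si 2. Between these 2 control libraries the median member was 1.47-fold higher in neg.si 3, and 178 members (79.8%) were higher there, where 50.6% of all genes were.

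**Figure D3:**
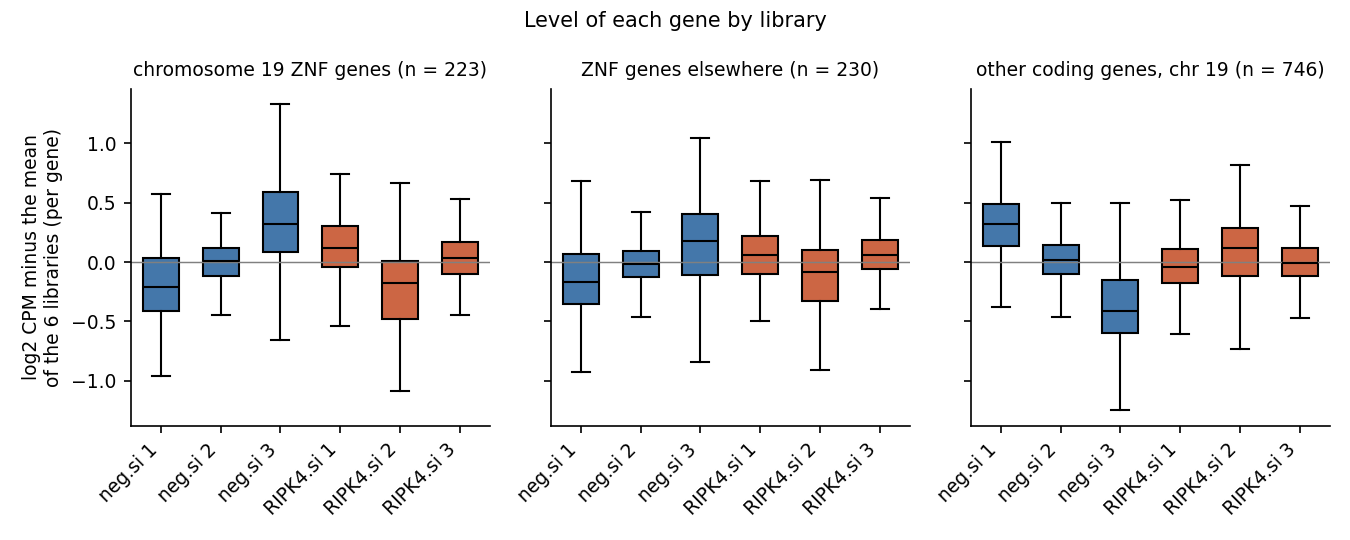
log2 CPM of each gene minus its mean over the 6 libraries (y), by library, for the chromosome 19 ZNF genes, the ZNF genes of other chromosomes and the other protein-coding genes of chromosome 19 (boxes show the median and quartiles, whiskers 1.5 times the quartile range, outlying points not drawn). The members' medians run from -0.21 in neg.si 1 to 0.32 in neg.si 3 and -0.18 in RIPK4.si 2, and those of the other chromosome 19 genes from 0.32 in neg.si 1 to -0.41 in neg.si 3.

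The ZNF genes of other chromosomes (230 genes) moved the same way with smaller differences, averaging -0.14, -0.02 and 0.15 in neg.si and 0.08, -0.13 and 0.07 in RIPK4.si. The other protein-coding genes of chromosome 19 (746 tested) moved the opposite way within neg.si, averaging 0.31, 0.03 and -0.36, and only 11.4% of them were higher in neg.si 3 than in neg.si 1. Their median GC content was 60.5%, that of the other ZNF genes 45.2%. These 3 sets of genes were measured in the same libraries, and the comparison describes these libraries.

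The members themselves divided by GC content in the same way. The 59 members under 40% GC averaged -0.42, -0.05 and 0.56 in the neg.si libraries, and the 32 tested members of at least 50% GC averaged 0.29, 0.00 and -0.39. Removing the GC trend, fitted over all genes in each library, left the members at -0.08, -0.01 and 0.14 in neg.si and 0.10, -0.20 and 0.01 in RIPK4.si. The median SD of a member within neg.si went from 0.36 to 0.24 on the log2 scale, and that within RIPK4.si from 0.25 to 0.23. The low level in RIPK4.si 2 was thus largely kept, while the contrast between the control libraries became smaller.

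**Figure D4:**
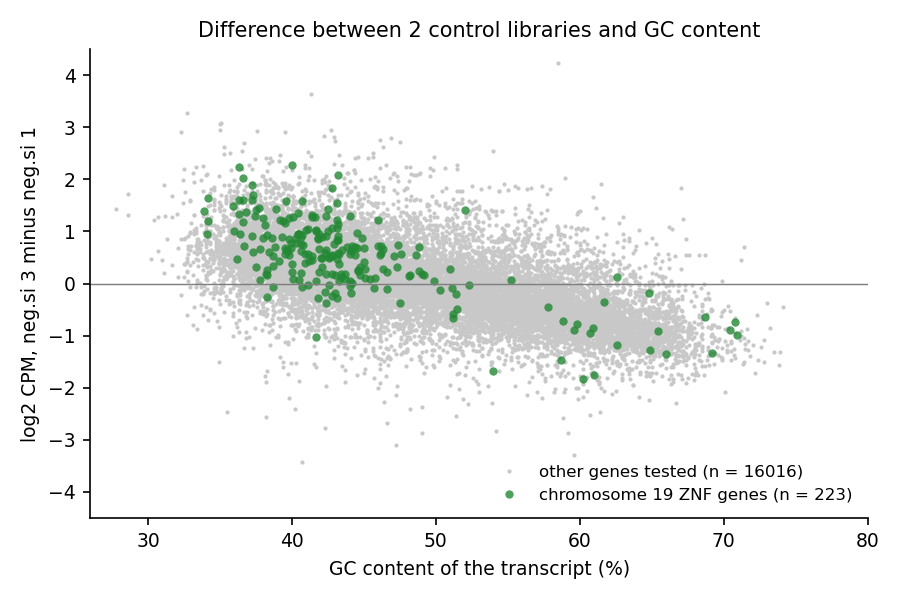
GC content of the longest annotated transcript of each gene (x, %, coding transcripts first) against the log2 difference between neg.si 3 and neg.si 1 (y) for the 223 chromosome 19 ZNF genes (green) and the other genes tested that have a GC value (grey). Members of low GC content lie mostly above 0, and members of high GC content mostly below it, as do the other genes.

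Transcript structure moved with the same libraries. The 45 members with a 3′ UTR of 4 kb or more averaged -0.29 in neg.si 1, 0.54 in neg.si 3 and -0.47 in RIPK4.si 2. The 56 members with a 3′ UTR under 1 kb averaged -0.01, 0.06 and -0.07 in those libraries. The median GC content was 41.6% in the first class and 43.3% in the second. The part of 3′ UTR length in this pattern was not tested.

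Along the chromosome, the group medians of the log2 fold change ran from -0.29 to 0.12 over the groups of more than 3 members. The lowest was that of the 4 members from ZNF554 to ZNF77, all below 0, and the highest that of the 6 members from ZNF724 to ZNF254, 5 of them above 0. The 4 members that lay alone, ZNF536, ZNF507, ZNF333 and ZNF473, had log2 fold changes of -0.47, -0.41, 0.01 and 0.01. The group from ZNF565 to ZNF573 (25 members) had a median log2 fold change of -0.22, with 4 members above 0 and 21 below, and the group from ZNF653 to ZNF791 (22 members) had -0.20, with 4 above and 18 below. In the group from ZNF575 to ZNF180 (23 members) the median was 0.05, with 14 above and 9 below, and in that from ZNF101 to ZNF257 (23 members) it was 0.00. The 56 members near the end of the long arm had -0.05 and the 37 from ZNF175 to ZNF331 had -0.11. These medians moved with single libraries. Without neg.si 3 that of the ZNF565 to ZNF573 group was 0.06, that of the ZNF653 to ZNF791 group -0.01, that of the ZNF175 to ZNF331 group 0.15, that of the ZNF101 to ZNF257 group 0.42 and that of the ZNF724 to ZNF254 group 0.61. Without RIPK4.si 2 the first 3 of these were -0.04, -0.08 and 0.11. Without neg.si 1 the ZNF101 to ZNF257 group had -0.21, the ZNF724 to ZNF254 group -0.10, the ZNF575 to ZNF180 group -0.05 and the group near the end of the long arm -0.15. The ZNF554 to ZNF77 group stayed between -0.29 and -0.23 in the fits without 1 library. By structure, the 188 tested members with a KRAB pattern had a median of -0.12 and the 35 without it 0.02, and with the GC trend removed -0.07 and 0.03.

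**Figure D5:**
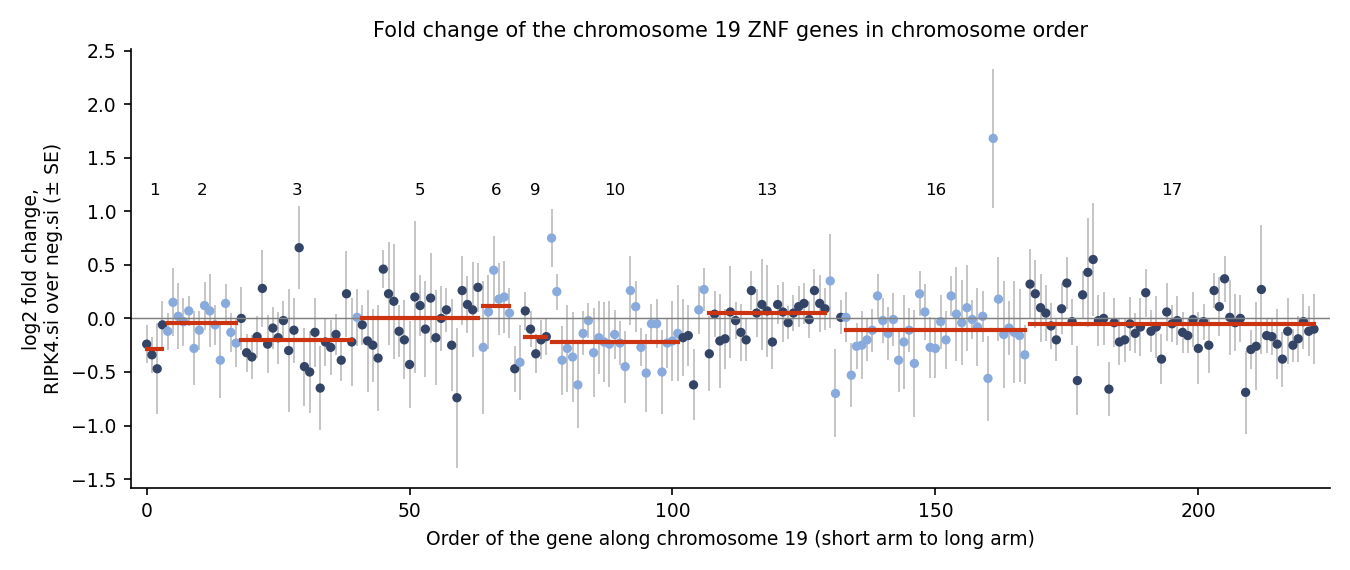
log2 fold change of RIPK4.si over neg.si with its standard error (y) for the 223 tested members in their order along chromosome 19 (x). Alternating shades mark the groups of neighbouring members, red lines the median of groups of more than 3, and the numbers above count these groups from the short arm. Group 10 (ZNF565 to ZNF573) lies lowest of the groups of over 20 members at -0.22 (0.06 without neg.si 3), and single members scatter around every line.

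The 7-base sequence ACAGCTT in the 3′ UTR, which had been found to go with lower levels in RIPK4.si across all genes of these same libraries, was present in 46 tested members. Their median log2 fold change was -0.17, and that of the 176 tested members without it -0.08. With the GC trend removed these medians were -0.11 and -0.04, and the median GC content was 40.6% in the first set and 42.8% in the second. Over all tested protein-coding genes the medians were -0.10 with the sequence and 0.00 without it, or -0.07 and 0.02 with the GC trend removed. As the sequence was picked from these libraries, this is no independent evidence.

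A list of 32 genes linked to the silencing of chromatin by KRAB zinc finger proteins was written from general knowledge, and all 32 passed the filter. In edgeR's main fit 1 of the 32 was called, where 0.767% of all genes tested were. HDAC1, a histone deacetylase of the NuRD complex, measured 54.5, 58.2 and 64.4 CPM in neg.si and 128.3, 104.1 and 102.9 CPM in RIPK4.si. It rose by a log2 fold change of 0.92 (SE 0.155, adjusted p = 0.0397 in edgeR and 4.2e-05 in DESeq2), and all RIPK4.si libraries were above all neg.si libraries. With edgeR the call was lost when neg.si 1, neg.si 2 or any RIPK4.si library was left out, with adjusted p-values from 0.0659 to 0.279 and log2 fold changes from 0.82 to 0.98.

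The core of the pathway gave no call. TRIM28, the platform that KRAB domains bind, measured 277.2, 231.6 and 165.1 CPM in neg.si and 226.1, 308.5 and 251.4 CPM in RIPK4.si, with a log2 fold change of 0.22 (SE 0.212, edgeR adjusted p = 0.829), or 0.42 without neg.si 1 and 0.05 without neg.si 3. SETDB1, the methyltransferase that TRIM28 brings, was level in all libraries, with 28.1 ± 1.19 and 26.9 ± 1.27 CPM. TRIM33, a relative of TRIM28, measured 137.3, 165.4 and 212.4 CPM in neg.si and 111.1, 108.3 and 124.1 CPM in RIPK4.si, with a log2 fold change of -0.58 (SE 0.182, edgeR adjusted p = 0.232). Its groups did not overlap, and with the GC trend removed its adjusted p was 0.0305. Of the 32 genes, 15 lay above 0 and 17 below, with a median of -0.03, and the groups were separated for 6 (18.8%), against 17.6% of all genes.

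Among the ZNF genes of other chromosomes, 2 of 230 were called, and 0.767% of all genes tested were. ZNF853 of chromosome 7 fell from 13.4 ± 3.14 to 4.47 ± 0.404 CPM, a log2 fold change of -1.59 (SE 0.221, edgeR adjusted p = 0.0274). ZNF385A of chromosome 12 rose from 16 ± 4.20 to 38.7 ± 5.27 CPM, a log2 fold change of 1.28 (SE 0.223, edgeR adjusted p = 0.0420). Both genes had a GC content above 60% and no KRAB pattern. The adjusted p in DESeq2 was 4.17e-07 for ZNF853 and 4.25e-05 for ZNF385A. In edgeR the 2 calls were lost when neg.si 2 or any 1 RIPK4.si library was left out, with log2 fold changes over all fits without 1 library from -1.76 to -1.41 for ZNF853 and from 1.08 to 1.43 for ZNF385A. The difference between 2 of 230 and 0 of 223 was not tested.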

How the data were processed

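WM266.4 melanoma cells were transfected with neg.si or RIPK4.si, with 3 libraries each. The authors prepared poly(A) libraries, sequenced read pairs and trimmed these with Cutadapt. TopHat placed them on GRCh38.p13, and HTSeq counted pairs on genes, unstranded. The deposited count columns hold these raw whole numbers. The deposited signal columns hold the counts after scaling by DESeq2's size factors. The deposited ratio (fold), log2 fold change and p-value columns came from the authors' own DESeq2 comparison and were not used.

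Counts were tested with edgeR 4.0.16 (TMM, edgeR's filter on low counts, quasi-likelihood test, Benjamini-Hochberg over 16297 genes) in R 4.3.3. DESeq2 1.42.0 was an alternative, with adjusted p-values it gave as NA left as NA. Centred levels used log2 CPM with a prior count of 2. GC content, lengths, overlaps and coding sequence came from GENCODE 44 on GRCh38, which held all 226 members. Finger and KRAB patterns were searched in translated coding sequence, so they are pattern matches. The GC trend was removed with a lowess of span 0.3. The scripts were tested on simulated counts with known changes. Intervals and p-values measure the spread between these libraries, and the standard errors did not follow the counts alone. With 3 against 3 libraries, an exact permutation test of 1 gene cannot go below 0.1.

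Named genes were those called, up to 8 higher and 8 lower with separated groups and the smallest p-values (only 7 higher ones existed), the 5 highest by CPM and by CPM per kilobase, members with a role known from other work, the 3 nearest the count threshold on each side and, of the corepressor list, TRIM28, SETDB1 and genes with an unadjusted p under 0.05. The genes, lists and rules were chosen with earlier results of these data known. Calculations outside R used Python 3.11.15, numpy 2.4.6, pandas 2.3.3 and matplotlib 3.10.9. Some genes that passed the test are not reported here.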

Additional observations from a re-analysis of the deposited data

How the results depend on the processing

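No chromosome 19 ZNF gene was called under any of the 16 alternatives, and 24 of the 32 named members with a test kept the direction of their log2 fold change in up to 14 other fits. The number with an unadjusted p under 0.05, 4 in edgeR with TMM, was 9 with the GC trend removed (16.2% of all genes), 9 with the replicate block and the GC trend removed together (16.6%), 0 among members with no overlapping gene, and from 1 to 10 when each library was left out. The members' median log2 fold change ranged from -0.18 to 0.07 when each library was left out. Calls over all genes went from 0.767% to 3.45% with the GC trend removed, 2.97% with the block added to it, and 0.0% to 1.78% without single libraries. Calls among the 32 corepressor genes were 2, 2 and 0 to 1 in those fits. Calls among the 230 ZNF genes of other chromosomes were 4, 5 and 0 to 3. RIPK4 had a log2 fold change from -2.06 to -1.74 without single libraries, with an adjusted p above 0.05 in 4 of the 6 (edgeR adjusted p up to 0.106). ZNF700 reversed to 0.02 with the GC trend removed, with and without the block. When each library was left out, the log2 fold change changed sign for ZNF226 (-0.13 to 0.05), ZNF160 (-0.39 to 0.25), ZNF581 (-0.11 to 0.34), ZNF700 (-0.13 to 0.14), ZNF266 (-0.06 to 0.31), ZNF91 (-0.13 to 0.55), ZNF224 (-0.39 to 0.09) and ZNF568 (-0.23 to 0.06). The cause was not tested.

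The labels do not state whether libraries of the same replicate number were paired. Deviations from the group mean correlated at -0.242, 0.251 and 0.346 between same-numbered libraries. Between the other combinations they correlated from -0.498 to 0.413, so these values do not settle the pairing. With the replicate block in edgeR, 0 members were called (0.804% of all genes), 4 had an unadjusted p under 0.05 (10.6% of all genes), the members' median log2 fold change was -0.06, and RIPK4 was at -1.88. The 29 members under 1 CPM rest on few counts.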

Other observations

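Zinc finger genes of chromosome 19 outside the ZNF naming were also measured. The 11 protein-coding genes of the chromosome with at least 3 fingers and another name, such as ZBTB7A, WIZ and ZFP30, had 0 calls in edgeR, where 0.767% of all genes did, and 1 (9.09%) with an unadjusted p under 0.05, where 10.8% of all genes tested had such a p. That gene was ZBTB7A, a repressor of fetal globin genes, with 23.3 ± 3.47 CPM in neg.si and 31.5 ± 3.33 CPM in RIPK4.si (mean ± SD, n = 3, edgeR log2 fold change 0.44, SE 0.172, adjusted p = 0.378, DESeq2 adjusted p = 0.347). Their median log2 fold change was 0.15 and 9 of the 11 lay above 0. The 10 ZNF-named genes of the chromosome that are not protein coding, long non-coding RNAs and pseudogenes, had 0 calls, against 0.767% of all genes, and 0 with an unadjusted p under 0.05 in edgeR, against 10.8%, counts too small to set them apart. Their median log2 fold change was 0.14. The genes named here were chosen after their values were seen.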
